A study of Homo sapiens with 12 samples.

Results

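The proteasome subunit genes were taken as every gene of the count table whose symbol starts with PSMA, PSMB, PSMC, PSMD, PSME, PSMF or PSMG and ends in a number. The rule found 48 genes among 19447 symbols, and it used no measured value. They comprised 7 genes of the alpha ring, 7 of the constitutive beta ring, 3 immunoproteasome beta genes (PSMB8, PSMB9 and PSMB10), the tissue-specific PSMA8 and PSMB11, 6 ATPases and 11 non-ATPases of the regulatory particle. The other members were 3 chaperones of the regulatory particle (PSMD5, PSMD9 and PSMD10), 4 activators (PSME1 to PSME4), the inhibitor PSMF1 and 4 chaperones of the core (PSMG1 to PSMG4).

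Messenger RNA was sequenced from K562 cells, a human chronic myeloid leukaemia line that carries the BCR-ABL1 fusion, and from K562/IM, a subline made resistant to the kinase inhibitor imatinib by stepwise exposure and kept in 5 µM of that drug. Each line was sequenced without and with 6 µM lycorine, an alkaloid of Amaryllidaceae plants, which gave the untreated groups K562 and K562/IM and the treated groups K562+L and K562/IM+L, with 3 libraries each. All groups share the K562 background, K562/IM is 1 selected subline, and the length of the lycorine exposure before sequencing was not given in the sources used here. The sources describe imatinib in the medium of the K562/IM line and none in that of the parental line. Whether the drug was present in the cultures that were sequenced was not given. The selected subline and any imatinib in its cultures therefore cannot be told apart in any result that sets the lines against each other. The sources number the treated resistant group in more than 1 way, so every statement on it rests on its label as deposited, and it is called labelled K562/IM+L. Nothing in the labels says that the libraries of a group came from separate cultures, so each p-value measures only the spread between these libraries, which may be technical.

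The proteasome degrades proteins that carry ubiquitin chains. Its 20S core is a barrel of alpha rings around beta rings, and the beta subunits PSMB5, PSMB6 and PSMB7 hold the cutting sites. The 19S regulatory particle, made of PSMC ATPases and PSMD subunits, binds, unfolds and feeds in the substrate. In immune cells and under interferon, PSMB8, PSMB9 and PSMB10 take the places of PSMB5, PSMB6 and PSMB7, and the PSME1 and PSME2 ring caps the core. When proteasome activity falls, the transcription factor NFE2L1 binds antioxidant response elements at subunit genes and drives their transcription.

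The libraries held between 75093844 and 107344598 counts. Of the members, 46 passed the filter on low counts in every comparison. PSMA8, of the testis form, had 4, 0 and 0 counts in K562, 0, 5 and 8 in K562+L and none in K562/IM or labelled K562/IM+L. PSMB11, of the thymus form, had 5 counts in 1 K562+L library and none elsewhere. All 10 markers of K562 cells were above 3 counts in every group, with a summed level of 6264 to 8661 counts per 1000000 (CPM) in K562, 4219 to 4841 in K562+L, 2856 to 3103 in K562/IM and 32639 to 45834 in labelled K562/IM+L. The 7 lymphocyte markers summed to 2.19 to 3.50, 0.543 to 1.36, 23.8 to 25.7 and 0.830 to 1.30 CPM in the same order, mostly CD3D in K562/IM, with MS4A1 at 0 throughout. The 6 stromal and epithelial markers, mostly EPCAM, summed to 124 to 133, 107 to 119, 49.6 to 55.0 and 85.4 to 106 CPM. The part of these marker differences in the results was not tested. K562 replicates 1 and 3 and labelled K562/IM+L replicate 3 stood apart along transcript length, with values given beside the results below.

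A search of the 300 bases around the gene starts, of which 250 lie before the start and 50 after it, was possible for 42 of the 48 members in RefSeq (GRCh38.p14). The core letters of the antioxidant response element, TGACNNNGC on either strand, occurred in 13 of the 42 windows (31.0%) and in 13.3% of 35116 gene windows. The letters of the interferon-stimulated response element, which are GAAA, 2 bases of any kind and GAAA again, on either strand, occurred in 6 member windows (14.3%) and in 3.57% of all windows. CCAAT, the box bound by the factor NF-Y, occurred in 19 member windows (45.2%) and in 34.6% of all. The 35116 windows are all those of the source used, not only those of genes in the count table. They were not matched to the members, and the differences in share were not tested. No match of 1 motif overlapped a match of another in the members, and a match is a description of letters, not a bound site. The windows below are a choice from the members named in the comparisons, 30 bases each, written along the gene's own strand, with the matched letters in capitals. The windows of PSMC4, PSMD1, PSMD3, PSMD5, PSMG1 and PSMG2 held antioxidant response element letters too and are not printed. Those of PSMA2, PSMA4, PSMB2, PSMB5, PSMB8, PSMB10, PSMD10, PSMD14, PSME3 and PSMG4, also named in the comparisons, held none. No match was found for PSMA7, PSMB6, PSMB7 or PSMF1 either, which may be among the members without a window.

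Antioxidant response element letters stood upstream of the immunoproteasome gene PSMB9 (chr6:32854034-32854063, plus strand), of the chaperone PSMD9 at 2 places (chr12:121888631-121888660 and chr12:121888678-121888707, plus strand) and of the lid subunit PSMD12 (chr17:67366723-67366752, minus strand). They also stood upstream of the activators PSME1 (chr14:24136098-24136127, plus strand), PSME2 (chr14:24146766-24146795, minus strand) and PSME4 (chr2:53971008-53971037, minus strand) and of the beta subunit PSMB3 (chr17:38752627-38752656, plus strand).
PSMB9: gggcggggctGCCTCGTCActtgtctcggg
PSMD9 first: cgctactcctGCCGGGTCAccacaggcgca
PSMD9 second: cggcttccggTGACCCAGCtccgccctaag
PSMD12: agacaaaaccTGACGCTGCaggctggagtg
PSME1: atggcagggcTGACCCCGCctcctccatcc
PSME2: ccctggactgTGACCCAGCcagcaccgcct
PSME4: cccggcggctGCAGCGTCAccagcagagcc
PSMB3: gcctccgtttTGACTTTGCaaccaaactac

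Interferon-stimulated response element letters lay at the starts of the immunoproteasome gene PSMB10 (chr16:67936852-67936881, minus strand) and of the paired activators PSME1 (chr14:24136189-24136218, plus strand) and PSME2 (chr14:24146619-24146648, minus strand). These 3 windows were chosen for print with the changes of the genes under lycorine known. The other windows with these letters were those of PSMA4, PSMB4 and PSMG4. In K562+L against K562, PSMA4, PSMG4 and the 3 printed members fell and PSMB4 did not pass. PSMA2 and PSMB3 fell there without these letters, and the windows of PSMB8 and PSMB9 held none. In labelled K562/IM+L against K562/IM, PSME1 and PSMB4 rose, PSMG4 fell, and PSMA4, PSMB10 and PSME2 did not pass. Any part of these letters in the changes was not tested.
PSMB10: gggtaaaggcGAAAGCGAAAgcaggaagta
PSME1: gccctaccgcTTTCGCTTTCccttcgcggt
PSME2: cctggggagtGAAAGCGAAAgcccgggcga

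Transcripts of the whole set were fewer in the resistant line. The summed level of the 48 members was 8719, 9453 and 10155 CPM in the 3 K562 libraries and 8800, 9279 and 8722 CPM in K562+L. It was 6194, 6360 and 6343 CPM in K562/IM and 6873, 6975 and 5918 CPM in labelled K562/IM+L. Every library of the resistant line lay below every library of the K562 groups, and the 2 groups of each line overlapped. As a share of all counts the members took 0.905% ± 0.0457 (SD, n = 3) in K562, 0.870% ± 0.0284 in K562+L, 0.689% ± 0.00714 in K562/IM and 0.643% ± 0.0339 in labelled K562/IM+L. On that share every labelled K562/IM+L library (0.604% to 0.666%) lay below every K562/IM library (0.681% to 0.695%). The mean summed CPM went the other way, at 6589 against 6299. CPM also uses a scaling factor per library, of 1.09 to 1.10 in K562/IM and 0.954 to 1.02 in labelled K562/IM+L. The direction between these 2 groups thus depended on the scale.

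Per kilobase of annotated exon, the median level in K562 was 115 CPM per kilobase for the constitutive beta ring, 56.2 for the alpha ring, 61.9 for the ATPases and 53.9 for the non-ATPases. The highest member on that scale was PSMA7 of the alpha ring, at 177 CPM per kilobase. The activators had a median of 27.1 and the immunoproteasome beta genes of 4.44 CPM per kilobase. These values depend on the exon lengths of the annotation used, which also count exons of rare transcripts.

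K562/IM against K562 compares the resistant line with the parental line, both without lycorine. In this comparison 41 of the 46 members tested fell and none rose. Of all genes tested, 27.1% fell and 30.1% rose, at an adjusted p under 0.05 in the quasi-likelihood test of edgeR, adjusted by Benjamini-Hochberg over all genes, which is the test behind each count and adjusted p below. The fitted log2 fold change was under 0 for 46 of 46 members, with a median of -0.60 against 0.04 for all genes tested. The 5 members that did not pass were PSMB10 at -0.33 (SE 0.15, adjusted p = 0.084), PSMG4 at -0.25 (adjusted p = 0.051), PSME1 at -0.16, PSME4 at -0.10 and PSMD10 at -0.01. In bulk RNA, fewer cells of 1 kind and less RNA per cell cannot be told apart.

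**Figure D1:**
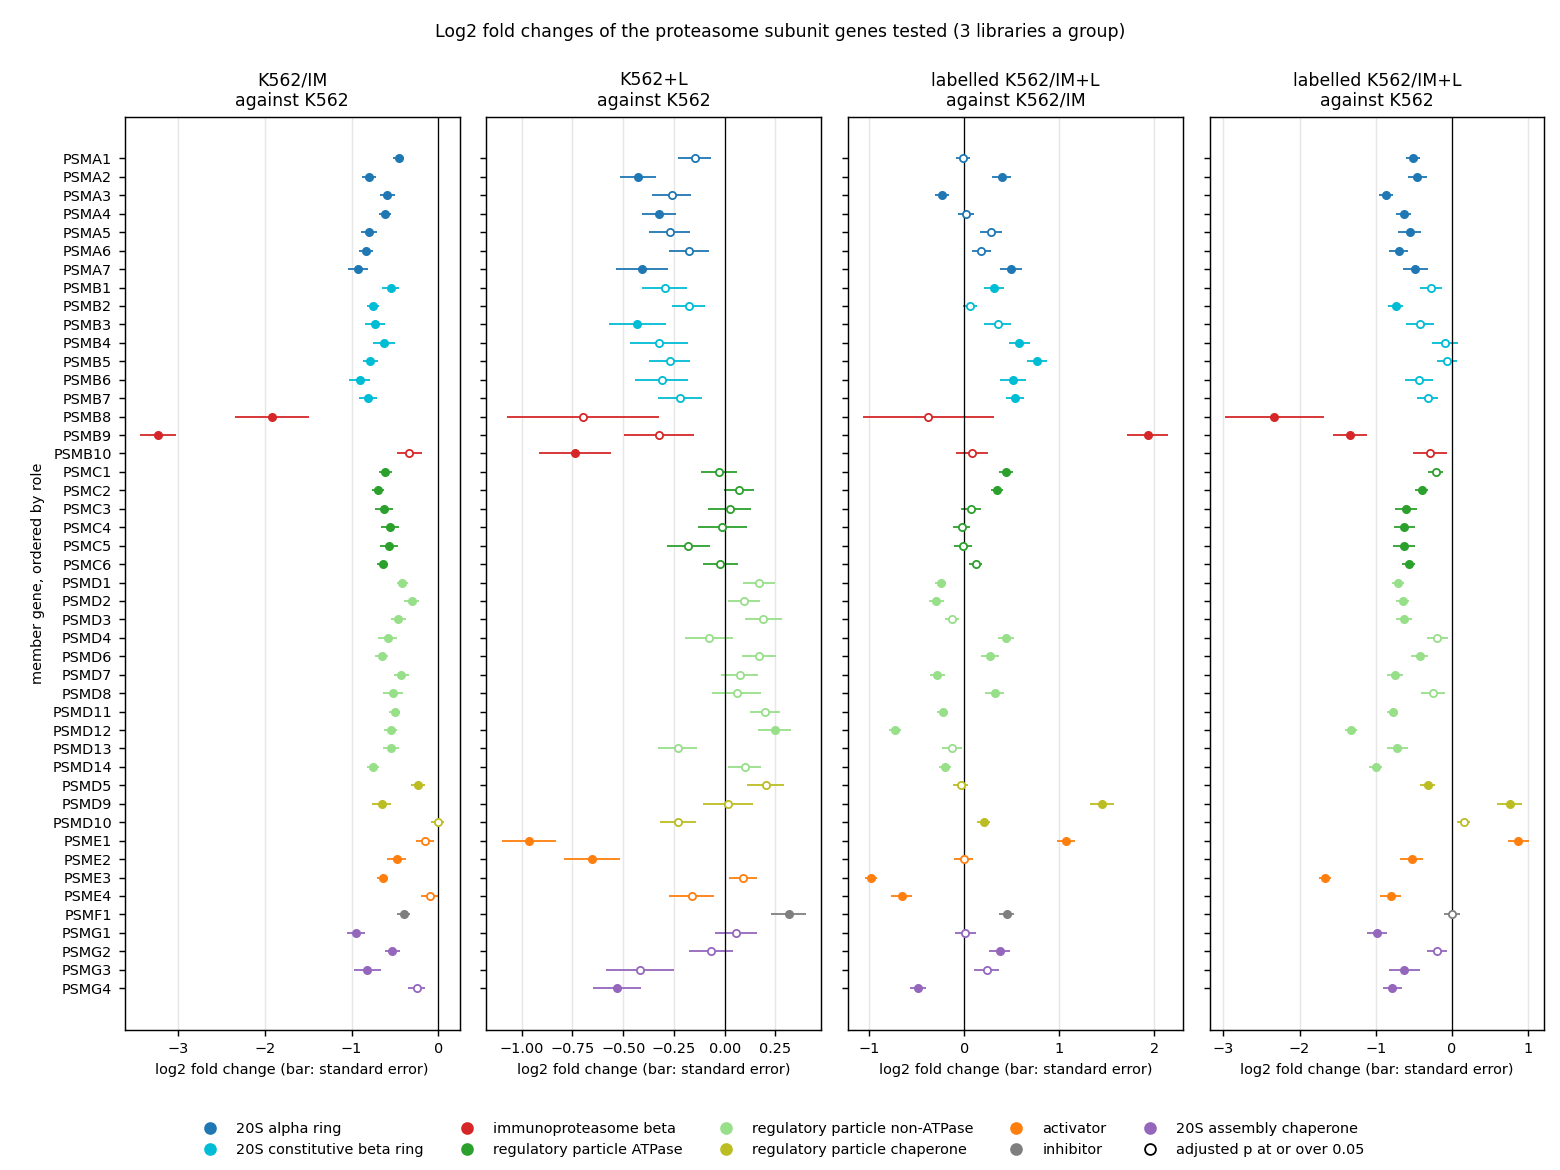
Log2 fold change (horizontal axis) of the 46 members tested (vertical axis, ordered by role) in 4 comparisons of 3 libraries against 3, with standard errors as bars, filled points for adjusted p under 0.05 and a horizontal scale of its own in each panel. In K562/IM against K562 all 46 points lie below 0, while the members spread from -0.98 (PSME3) to 1.93 (PSMB9) in labelled K562/IM+L against K562/IM.

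All 14 constitutive core genes fell in K562/IM, and the median change on the log2 scale was -0.79 in the alpha ring and -0.75 in the beta ring. PSMB2, of the constitutive beta ring, had 443, 463 and 499 CPM in K562 and 277, 279 and 278 CPM in K562/IM. Its log2 fold change was -0.75 (SE 0.069, adjusted p = 7.8e-05).

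The regulatory particle fell as a whole: all 6 ATPases (median -0.62) and all 11 non-ATPases (median -0.52) passed. PSMD14, the subunit that cuts ubiquitin chains off the substrate, stood at 254, 269 and 282 CPM in K562 and at 152, 164 and 162 CPM in K562/IM. It fell by 0.75 on the log2 scale (SE 0.072, adjusted p = 9.7e-05). Among the non-ATPases the changes ran from -0.75 to -0.31, so no gene of the particle had a fitted change as large as those of the 2 immunoproteasome genes that follow.

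PSMB9, the immunoproteasome counterpart of PSMB6, showed the largest change of any member. It had 10.7, 13.3 and 16.9 CPM in K562 and 1.63, 1.21 and 1.53 CPM in K562/IM, and its log2 fold change was -3.23 (SE 0.21, adjusted p = 1.4e-05). PSMB8, the counterpart of PSMB5, rested on 56, 44 and 76 counts in K562 and 21, 18 and 15 in K562/IM, and fell by 1.92 (SE 0.43, adjusted p = 0.006). Both were past a log2 fold change of 1, as 5.29% of all genes tested were in the lower direction. PSMB10, the counterpart of PSMB7, stood at 22.4, 28.9 and 34.0 CPM against 23.5, 22.1 and 22.2 CPM, and its groups overlapped. PSMB8 and PSMB9 lie side by side on chromosome 6, at 32840717 to 32844703 and 32844136 to 32859585 in the GENCODE 29 annotation of GRCh38. Their exons overlap on opposite strands, and whether counting used the strand was not given in the sources used here.

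Of the chaperones, PSMG1, which pairs with PSMG2 to build the alpha ring, had 208, 228 and 252 CPM in K562 and 121, 129 and 107 CPM in K562/IM. It fell by 0.95 (SE 0.10, adjusted p = 0.00017). PSMD9, a chaperone of the ATPase ring, fell by 0.65 and PSMF1, an inhibitor of the core, by 0.40. The nuclear activator PSME3 fell by 0.64 (SE 0.062, adjusted p = 1e-04) and PSME2 by 0.48.

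In K562+L against K562, which asks what lycorine did in the parental line, few members moved. PSMF1 and PSMD12 rose and 8 members fell, where 18.2% of all genes tested rose and 19.0% fell. Those that fell were PSME1, PSME2, PSMA2, PSMA4, PSMA7, PSMB3, PSMB10 and PSMG4. The median log2 fold change of the members was -0.17, and that of all genes tested 0.00.

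Among the members that passed, the largest falls in K562+L were those of PSME1, PSMB10 and PSME2. PSME1 had 43.8, 51.1 and 57.6 CPM in K562 and 24.9, 29.8 and 23.5 CPM in K562+L, a log2 fold change of -0.97 (SE 0.13, adjusted p = 0.0018). Its partner PSME2 had 83.0, 84.6 and 109 CPM against 52.1, 66.8 and 56.7 CPM, a change of -0.66 (SE 0.14, adjusted p = 0.0089). PSMB10 had 17.5, 19.5 and 14.1 CPM in K562+L and fell by 0.74 (SE 0.18, adjusted p = 0.014), a call lost without K562+L replicate 1 (adjusted p = 0.053). In these 3 genes every treated library lay below every untreated one. As they are described here because they passed on the same libraries, that separation adds no support. For PSMB9, at 10.3, 12.1 and 10.3 CPM, the groups overlapped and the change of -0.32 did not pass (adjusted p = 0.17).

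The 14 core genes all had fitted changes below 0 in K562+L, between -0.43 and -0.15, but only 4 of them passed, PSMA2 among them at -0.43 (SE 0.090, adjusted p = 0.0089). Of the 17 genes of the regulatory particle, 11 had fitted changes above 0 and only PSMD12 passed. PSMD12, a scaffold subunit of the lid, had 204, 216 and 198 CPM in K562 and 227, 258 and 247 CPM in K562+L, a change of 0.25 (SE 0.084, adjusted p = 0.0499, just under the threshold). That call was lost when any 1 library was left out, with adjusted p between 0.057 and 0.16. PSMF1 rose from 95.9, 104 and 110 CPM to 132, 129 and 125 CPM, a change of 0.32 (SE 0.086, adjusted p = 0.023), and its call was lost without K562 replicate 2 or without any 1 K562+L library.

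Transcript length moved with these counts. Between K562 replicates 3 and 1, genes whose longest transcript was under 2000 bases differed by a median log2 of 0.26 and longer genes by -0.05, while the members differed by 0.28. In K562+L against K562 the shorter genes had a median of -0.30 and the longer genes of 0.06. The median longest transcript was 1294 bases in the constitutive beta ring and 3326 bases among the non-ATPases. When a trend of counts on length was removed from each library, a choice made after seeing the data, 8 members rose and 9 fell (20.4% and 19.1% of all genes), and the members' median went from -0.17 to 0.05. The fall of PSME1 (-0.60), PSME2 (-0.57) and PSMB10 (-0.39) passed there too. PSMA7 (0.0035, adjusted p = 0.97), PSMB3 (0.0836, adjusted p = 0.38) and PSMD12 (0.19, adjusted p = 0.064) lost their calls, and the median of the constitutive beta ring went from -0.30 to 0.05. The count also rested on single libraries: without K562 replicate 1, 1 member rose and 20 fell, and without K562+L replicate 1 none rose and 4 fell. Shares of all genes are not given for fits with a library left out. A change of the members there cannot be told from a change of the whole test.

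**Figure D2:**
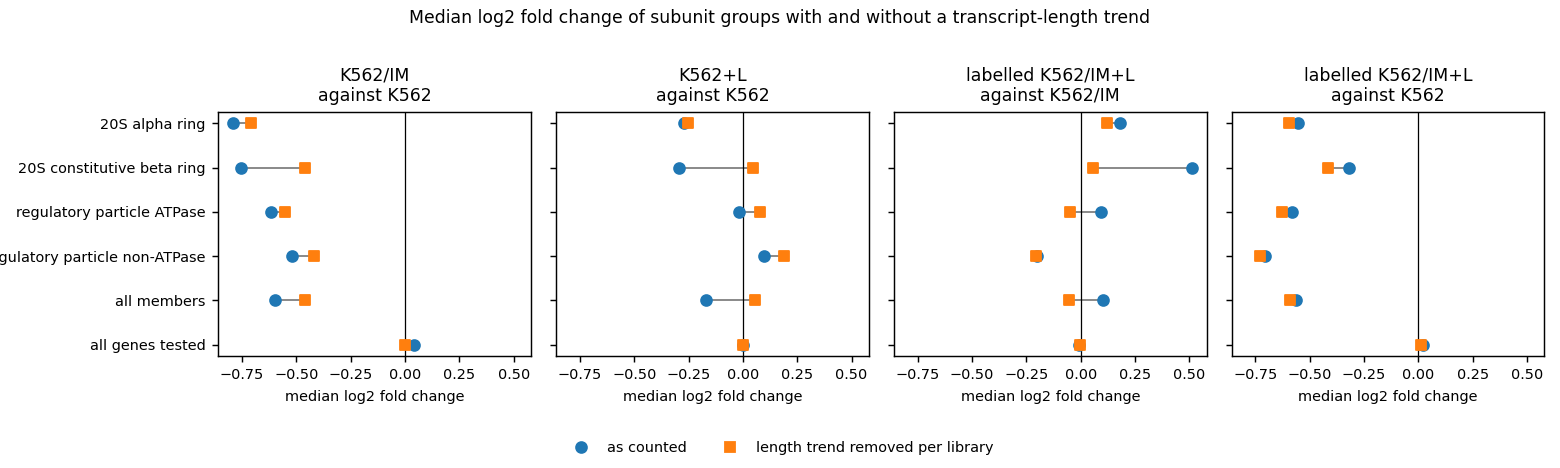
Median log2 fold change (horizontal axis) of 4 groups of subunits, all members and all genes tested (vertical axis) in 4 comparisons, from the counts as they stand (circles) and after removing a trend on transcript length from each library (squares). The constitutive beta ring moved most, from -0.30 to 0.05 in K562+L against K562 and from 0.51 to 0.06 in labelled K562/IM+L against K562/IM, while in K562/IM against K562 every group of subunits stayed below 0.

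With the same trend removed, the fall in K562/IM against K562 was as broad: 43 members fell and 2, PSMD10 and PSME1, rose, where 30.9% of all genes fell and 29.6% rose. All 31 genes of the core and the regulatory particle outside the immunoproteasome still fell, and their medians were -0.47 in the core and -0.43 in the particle. PSMB9 stood at -3.16.

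In labelled K562/IM+L against K562/IM, 18 members rose (39.1%) and 10 fell (21.7%), where 33.2% and 33.6% of all genes did, with a median of 0.10. These values rest on scaled library sizes, and the members' share of all counts went the other way, as given above. Of the constitutive beta ring 5 of 7 rose and none fell, and of the 11 non-ATPases 3 rose and 6 fell. After removal of the length trend, 2 of the beta ring rose and 1 fell, and of the non-ATPases 1 rose and 7 fell. The difference between these groups of subunits was not tested.

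PSMB5, the chymotrypsin-like cutting subunit and the target of bortezomib, had 64.8, 71.1 and 66.9 CPM in K562/IM and 123, 120 and 95.6 CPM in labelled K562/IM+L. It rose by 0.77 (SE 0.10, adjusted p = 0.00044). Its partners PSMB6 and PSMB7 rose by 0.51 (adjusted p = 0.012) and 0.53 (adjusted p = 0.0018). With the length trend removed, PSMB5 still rose by 0.37, while PSMB6 stood at -0.01 and PSMB7 at 0.06, and neither passed.

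Of the immunoproteasome genes, PSMB9 rose from 1.63, 1.21 and 1.53 CPM to 5.50, 6.52 and 4.35 CPM. Its change was 1.93 (SE 0.21, adjusted p = 0.00015), and with the length trend removed it was 1.81. PSMB10, at 26.7, 26.8 and 17.2 CPM, and PSMB8, at 13, 17 and 4 counts, overlapped with K562/IM. Their changes of 0.08 and -0.38 did not pass.

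**Figure D3:**
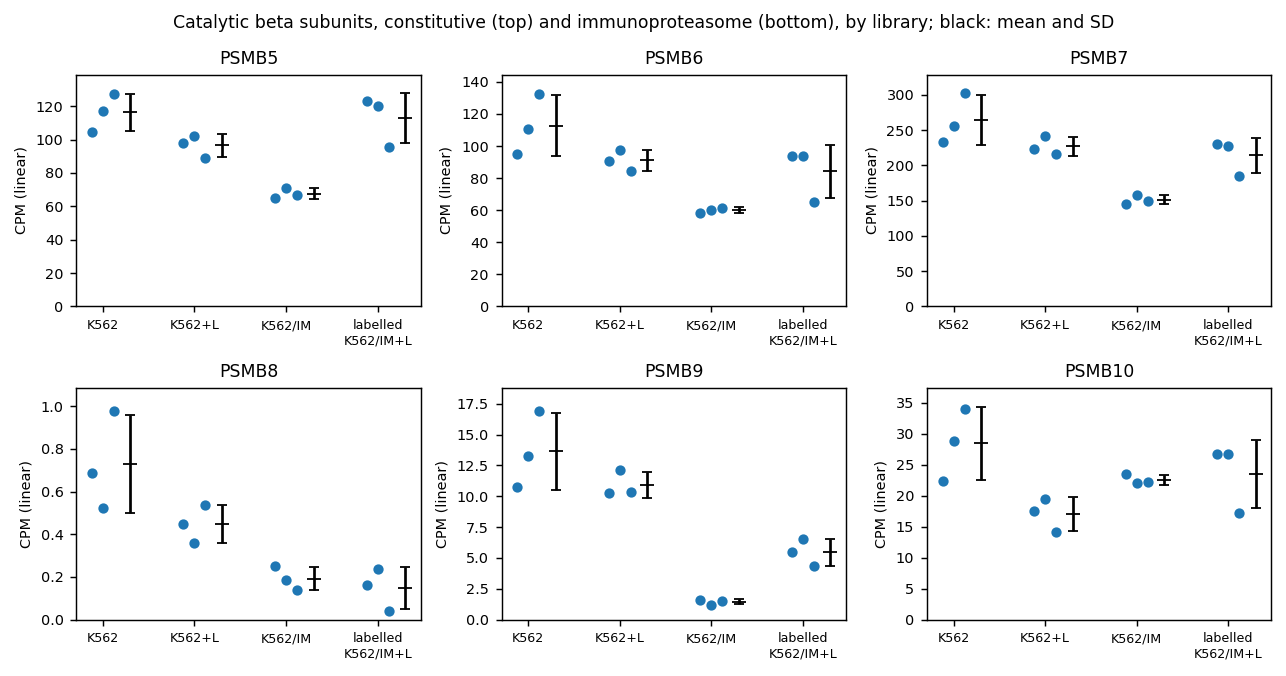
CPM on a linear axis from 0 (vertical) in each of the 12 libraries by group (horizontal) for the constitutive cutting subunits PSMB5, PSMB6 and PSMB7 (top) and their immunoproteasome counterparts PSMB8, PSMB9 and PSMB10 (bottom), with the mean and SD of 3 libraries in black. PSMB9 falls from a mean of 13.6 CPM in K562 to 1.46 CPM in K562/IM, whereas PSMB10 ranges from 14.1 to 34.0 CPM over all libraries.

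The largest rise among members in labelled K562/IM+L other than PSMB9 was that of PSMD9. Its level was 38.5, 39.9 and 39.1 CPM in K562/IM and 110, 121 and 85.2 CPM in labelled K562/IM+L, a change of 1.45 (SE 0.12, adjusted p = 4.3e-05). Its exons overlap those of WDR66 on the same strand. The activator PSME1 rose from 45.7, 44.8 and 46.4 CPM to 99.9, 102 and 80.9 CPM, a change of 1.07 (SE 0.097, adjusted p = 5.5e-05), and with the length trend removed its change was 0.64. PSME2, with which it forms 1 ring, had 65.9, 68.3 and 63.9 CPM against 72.4, 66.3 and 55.2 CPM. Its groups overlapped, at a change of 0.00 (adjusted p = 0.97). PSMD9, PSME1 and PSMB9 were the 3 members past a log2 fold change of 1 in this direction, as 14.7% of all genes tested were.

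The members that fell were led by PSME3, PSMD12 and PSME4. PSME3 stood at 273, 265 and 278 CPM in K562/IM and at 130, 136 and 140 CPM in labelled K562/IM+L, and fell by 0.98 (SE 0.067, adjusted p = 1.4e-05). PSMD12 went from 144, 146 and 133 CPM to 85.6, 82.1 and 82.7 CPM, a fall by 0.73 (SE 0.068, adjusted p = 6.3e-05). PSME4, the nuclear activator also called PA200, went from 220, 222 and 234 CPM to 131, 126 and 164 CPM, a fall by 0.66 (SE 0.11, adjusted p = 0.0014). In none of the 3 did the groups overlap, which adds no support, as they were chosen by their p from the same libraries. PSME3 shares exon sequence on the opposite strand with BECN1, and PSME4 with ACYP2. With the length trend removed the falls were 0.99, 0.63 and 0.35, and all 3 passed.

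**Figure D4:**
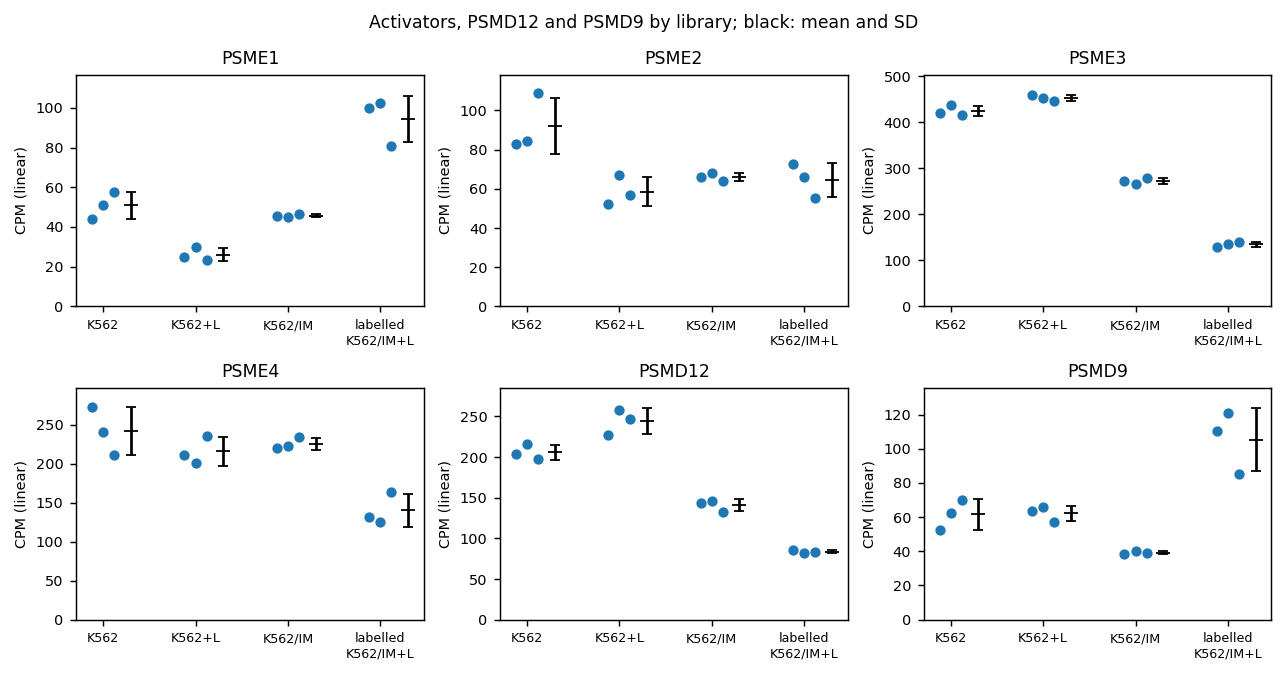
CPM on a linear axis from 0 (vertical) in each of the 12 libraries by group (horizontal) for the activators PSME1 to PSME4, the lid subunit PSMD12 and the chaperone PSMD9, with the mean and SD of 3 libraries in black. PSME1 and PSMD9 are highest in labelled K562/IM+L, at means of 94.3 and 105 CPM, where PSME3 and PSMD12 are lowest, at 135 and 83.5 CPM.

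Library 3 of labelled K562/IM+L stood apart along length. Against the mean of libraries 1 and 2, its shorter genes had a median log2 of -0.26, its longer genes of 0.04 and the members of -0.30. Without it, 26 members rose and 10 fell in this comparison, for which no share of all genes is given. With the length trend removed from all libraries, 12 rose and 17 fell (34.8% and 35.2% of all genes), and the members' median turned from 0.10 to -0.05. PSMB9, PSMD9 and PSME1 rose and PSME3, PSMD12 and PSME4 fell under each of these settings.

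In labelled K562/IM+L against K562, which sets the treated resistant cells beside the untreated parental line, 31 members fell and 2 rose, where 27.8% of all genes fell and 28.2% rose. The median was -0.56. PSME3 at -1.67 (SE 0.078, adjusted p = 1e-05), PSMD12 at -1.32 (SE 0.080, adjusted p = 2.3e-05), PSMB9 at -1.34 and PSMB8 at -2.33 were past a log2 fold change of 1, as 8.91% of all genes were in that direction. PSMB8, on 4 to 17 counts a library in the treated group, lost its call without K562 replicate 3 (adjusted p = 0.059). PSMD14 fell by 1.00, just short of that limit (adjusted p = 8.7e-05). PSME1 at 0.87 (SE 0.14, adjusted p = 0.0017) and PSMD9 at 0.76 (SE 0.17, adjusted p = 0.0069) rose. All 7 alpha ring genes fell but only PSMB2 of the 7 constitutive beta genes did. With the length trend removed, 39 members fell and 2 rose (32.1% and 31.1% of all genes), and 5 of the 7 constitutive beta genes were among those that fell. This comparison shares libraries with those above.

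The difference between the lycorine changes of the 2 lines was tested over all 12 libraries as an interaction. It passed above 0 for 21 members and below 0 for 9, where 29.9% and 31.7% of all genes did, with a median of 0.25. PSME1 had the largest difference after PSMB9. It fell in K562+L and rose in labelled K562/IM+L, and the interaction was 2.02 (SE 0.18, adjusted p = 1.7e-06). For PSMB9 it was 2.23 (SE 0.28, adjusted p = 3.2e-05) and for PSMD9 1.42 (SE 0.19, adjusted p = 4.5e-05). It was below 0 for PSME3 at -1.09 (SE 0.079, adjusted p = 4e-07) and for PSMD12 at -0.998 (SE 0.099, adjusted p = 4.8e-06). These 5 differences passed with the length trend removed too, where PSME1 stood at 1.19.

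**Figure D5:**
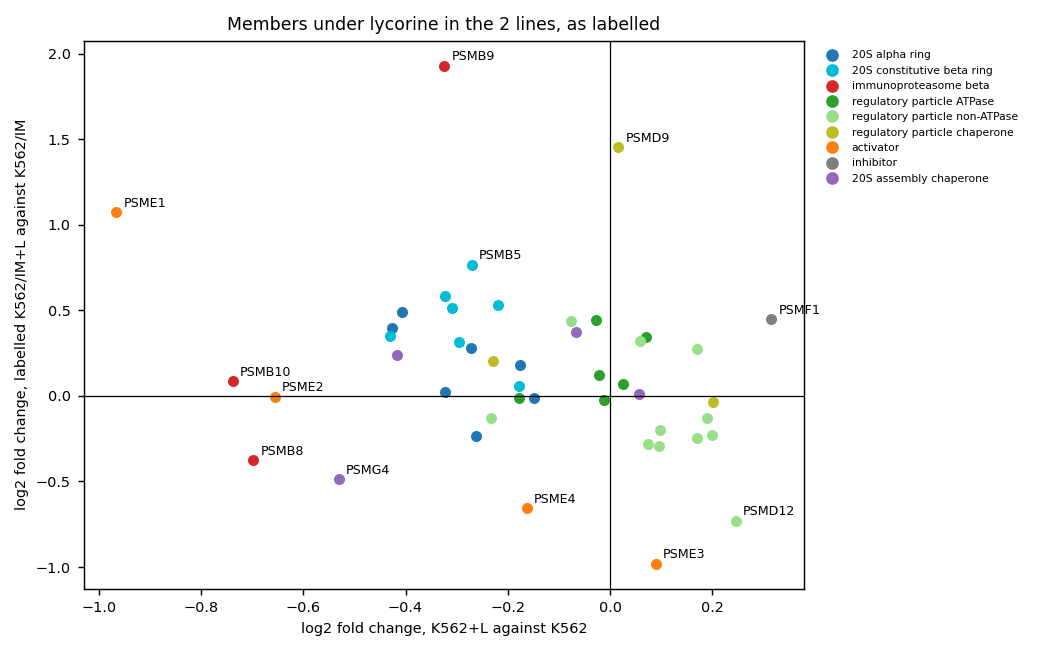
Log2 fold change in K562+L against K562 (horizontal axis) and in labelled K562/IM+L against K562/IM (vertical axis) of the 46 members tested, coloured by role. PSME1 lies at -0.97 and 1.07, PSMD12 at 0.25 and -0.73, and the constitutive beta genes (cyan) all lie left of 0 and above 0.

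By role, the interaction was above 0 in all 14 core genes and passed in 10, while among the 11 non-ATPases it passed below 0 in 7 and above 0 in 1. With the length trend removed the core split into 7 above and 5 below, and the non-ATPases had 9 below and none above. The members' median then turned to -0.10, with 12 above and 19 below (28.6% and 33.0% of all genes). Of the 46 members, 14 (30.4%) passed in neither line, where 21.8% of the 12810 genes tested in both did. Another 14 (30.4%) rose and 8 (17.4%) fell in labelled K562/IM+L and did not pass in K562+L, where 20.5% and 20.2% of those genes did. PSMF1 was the 1 member that rose in both lines and PSMG4 the 1 that fell in both, as 4.11% and 4.96% of all genes were. PSMD12 rose in K562+L and fell in labelled K562/IM+L, as 8.53% of all genes did, and 3 members (PSME1, PSMA2 and PSMA7) did the opposite, as 9.20% did. PSMA7 passed in neither line with the length trend removed.

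The immunoproteasome share was taken as the length-scaled counts of PSMB8, PSMB9 and PSMB10 over those plus PSMB5, PSMB6 and PSMB7. It was 5.83%, 6.56% and 6.78% in K562, 5.06%, 5.31% and 4.64% in K562+L, 7.74%, 6.76% and 7.09% in K562/IM and 5.81%, 6.02% and 5.01% in labelled K562/IM+L. The K562+L libraries lay below those of K562, the labelled K562/IM+L libraries lay below those of K562/IM, and the K562/IM libraries overlapped with K562. That overlap depended on the length used. With the longest transcript as length, every K562/IM library (6.13% to 7.01%) lay above every K562 library (5.03% to 5.84%). No test was made of the share, for which an exact permutation test of 3 libraries against 3 cannot go under p = 0.1. The total hid opposite parts. PSMB9 made up a mean of 5.36% of PSMB9 and PSMB6 together in K562, 5.34% in K562+L, 1.13% in K562/IM and 2.96% in labelled K562/IM+L. PSMB10 made up 9.35%, 6.74%, 12.6% and 9.49% of PSMB10 and PSMB7 in the same order, and PSMB8 at most 0.366% of PSMB8 and PSMB5.

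Of 40 other genes of ubiquitin, proteasome and antigen processing, 7 rose (17.5%) and 16 fell (40.0%) in K562/IM against K562, where 30.1% and 27.1% of all genes did, with a median of -0.19 against 0.04 for all genes. The 2 subunits without a PSM symbol of this form fell: ADRM1, a ubiquitin receptor of the particle, by 0.90 (adjusted p = 0.00072) and SEM1 by 0.71 (adjusted p = 0.0034). POMP, the maturation factor of the core, fell by 0.81 (adjusted p = 0.00039). NFE2L1 itself had 139, 129 and 137 CPM in K562 and 137, 135 and 144 CPM in K562/IM, a change of 0.04 that did not pass (adjusted p = 0.65).

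TAP1, a peptide transporter subunit whose RefSeq start lies 488 bases from the RefSeq start of PSMB9 on the opposite strand (the GENCODE gene of PSMB9 given above begins further upstream), moved in the same direction as PSMB9 in the resistant line. It had 30.7, 32.9 and 36.8 CPM in K562, 17.0, 14.4 and 17.3 CPM in K562/IM and 28.0, 29.9 and 28.1 CPM in labelled K562/IM+L. It fell by 1.04 in K562/IM (adjusted p = 0.00014) and rose by 0.85 from there in labelled K562/IM+L (adjusted p = 0.00018). NLRC5, an activator of class I antigen genes, went the other way, from 8, 0 and 8 counts in K562 to 467, 551 and 580 counts in K562/IM (adjusted p = 6.1e-05).

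Under lycorine, 13 of the 39 genes of this list that were tested rose (33.3%) and 7 fell (17.9%) in K562+L, where 18.2% and 19.0% of all genes did. In labelled K562/IM+L against K562/IM, 15 rose (37.5%) and 13 fell (32.5%), near the 33.2% and 33.6% of all genes. In K562+L, NFE2L1 rose by 0.24 (adjusted p = 0.048, lost when any 1 library was left out), SEM1 fell by 0.86 and POMP by 0.46. The call for POMP was lost without K562 replicate 2 or 3 or K562+L replicate 1 or 3 (adjusted p from 0.060 to 0.096) and with the length trend removed (adjusted p = 0.13). In labelled K562/IM+L, TAPBP, the loading factor tapasin, went from 87.9, 87.5 and 85.1 CPM to 237, 246 and 230 CPM, a rise of 1.48 (adjusted p = 1.6e-06). TAP2, the other transporter subunit, went from 90.0, 83.3 and 88.5 CPM to 33.2, 32.6 and 39.7 CPM, a fall by 1.28 (adjusted p = 2.3e-05). RPS27A, which encodes ubiquitin fused to a ribosomal protein, rose by 1.26, and SEM1 by 0.89. NFE2L1 stood at -0.05 (adjusted p = 0.54). Against K562, labelled K562/IM+L had 9 genes of the list higher (22.5%) and 17 lower (42.5%), where 28.2% and 27.8% of all genes were. TAPBP was higher by 1.79 and the aminopeptidase gene ERAP2 by 1.03 (adjusted p = 0.0067), and NLRC5 stood at 304, 288 and 369 counts (adjusted p = 3e-04). TAP2 fell by 1.69 and UCHL5, a ubiquitin hydrolase bound to the particle, by 1.00. The interaction passed above 0 for 12 of the 40 genes (near the 29.9% of all genes) and below 0 for 17 (42.5%, against 31.7%).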

How the data were processed

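The authors extracted RNA with TRIzol, made libraries by poly(A) enrichment and deposited 1 table of counts per gene symbol for the 12 libraries. The submitters' processing notes name FastQC, STAR, StringTie, DESeq2 and hg38. Versions, annotation and strand setting were not given in the sources used here. The deposited counts were used as whole numbers without change, and no column belonged to other samples (0). Of the values from 1 to 25, 67.9% were a multiple of 4 or 1 above it, against 52.0% of the whole numbers, so small counts may not be single reads.

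Members and gene lists were chosen with earlier results of these data known. Each pair of groups was compared with edgeR 4.0.16 in R 4.3.3 (TMM scaling, filterByExpr with a minimum count of 10, quasi-likelihood test, Benjamini-Hochberg adjustment over all genes, threshold 0.05), and the interaction over 12 libraries without covariates. CPM is counts per 1000000 of the TMM-scaled library size. Lengths and overlaps came from GENCODE 29, which matched 48 of 48 members, and promoter windows from RefSeq (GRCh38.p14). Of the members, 12 have 32 named pseudogenes between them (13 for PSMC1), 19 share exon sequence with an opposite-strand gene and 8 with a same-strand gene, so their counts are uncertain where reads could be split.

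Named with values were the catalytic genes, the activators, PSMF1, members at or near 0, in each comparison the 3 members with the smallest p in each direction and every member past a log2 fold change of 1, for the interaction the 5 smallest, and fixed or strongly changed genes of the other list, of which 1 is not reported here. PSMG1, the lists of members that passed or did not pass, and coordinates beyond these were added after their values were seen. Alternatives were DESeq2 1.42.0, RLE and upper-quartile scaling, other filters, counts divided by 4, a replicate block, 1 fit over all libraries and leaving out each library. The removal of a length trend (lowess per library on the longest transcript) and the 2000-base limit were chosen after seeing the data. On simulated counts for K562+L against K562 with 13528 genes, the test recovered 103 of 105 genes changed by a log2 of 1 and 95 of 95 changed by 2, with 13 false calls. For the interaction with 13705 genes it recovered 77 of 96 and 104 of 104, with 8 false calls. For K562+L against K562 with the length trend removed it recovered 194 of 200 genes of 13335, with 14 false calls. The interaction with the length trend removed was not simulated. The simulations gave every gene the same dispersion and changed only genes above a set mean count. Only the run with the length trend removed held such a trend, so recovery and false calls describe those settings and are not error rates for these data. No 2 libraries held identical values.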

Additional observations from a re-analysis of the deposited data

Results flagged for a closer look

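The change under lycorine differed between the lines for 21 members above 0 and 9 below 0 by the interaction test of edgeR, adjusted over all genes, with 29.9% and 31.7% of all genes passing. Of these, the 5 with the smallest p and PSMB10, the other immunoproteasome gene that passed, are given here. The differences were 2.23 for PSMB9 (adjusted p = 3.2e-05), 2.02 for PSME1 (adjusted p = 1.7e-06), 1.42 for PSMD9 (adjusted p = 4.5e-05), 0.80 for PSMB10 (adjusted p = 0.021), -0.998 for PSMD12 (adjusted p = 4.8e-06) and -1.09 for PSME3 (adjusted p = 4e-07), on the log2 scale. PSME1, PSMB9 and PSMD9 were higher in 3 of 3 labelled K562/IM+L libraries than in every K562/IM library, and PSMD12 and PSME3 lower. As these 5 members were chosen by their p from the same libraries, that separation adds no support. The difference for PSMB10 was 0.01 (adjusted p = 0.99) with the length trend removed, and it did not pass without K562 replicate 3, K562+L replicate 3 or labelled K562/IM+L replicate 1 or 2 (adjusted p from 0.055 to 0.063).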

How the results depend on the processing

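The direction of the members' median was kept in every comparison under DESeq2, RLE and upper-quartile scaling, the other filters, counts divided by 4, the replicate block and 1 fit over all libraries. Removing a length trend turned it to 0.0544 in K562+L against K562, to -0.0525 in labelled K562/IM+L against K562/IM and to -0.0952 in the interaction, and took it to -0.46 in K562/IM against K562. In K562+L against K562, where 10 members passed, DESeq2 called 16 and the fit without the length trend 17. Shares of all genes are given only for the main fit and the fit without the length trend. The other counts of members in this section therefore do not separate the members from the whole test. Upper-quartile scaling moved the median of all genes by 0.15 in labelled K562/IM+L against K562 (27 members passed, 3 above and 24 below 0, with a members' median of -0.41 against 0.17 for all genes) and by 0.13 in the interaction (23 members above and 6 below 0).

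The replicate numbers did not pair the libraries: same-numbered libraries of different groups deviated with correlations from -0.60 to 0.44. With the replicate block 5 members passed in K562+L against K562, 40 in K562/IM against K562, 25 in labelled K562/IM+L against K562/IM, 24 in labelled K562/IM+L against K562 and 30 in the interaction.

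Leaving out 1 library gave 4 to 21 members in K562+L against K562 (medians -0.21 to -0.12), 39 to 44 in K562/IM against K562 (-0.69 to -0.55), 21 to 36 in labelled K562/IM+L against K562/IM (0.06 to 0.21), 29 to 33 in labelled K562/IM+L against K562 (-0.63 to -0.46) and 25 to 33 in the interaction (0.14 to 0.32). Of the first range, 21 came without K562 replicate 1, 5 without K562 replicate 2, and 4, 6 and 5 without K562+L replicates 1, 2 and 3. Signs also turned in such ranges for PSMD9 (-0.10 to 0.12) and ADRM1 (-0.25 to 0.0136) in K562+L against K562, for PSME2 (-0.0925 to 0.0994), PSMB10 (-0.0150 to 0.27), POMP (-0.0059 to 0.18) and PSMB8 (-0.89 to 0.0860) in labelled K562/IM+L against K562/IM, for PSMF1 (-0.0677 to 0.0727) and PSMB5 (-0.14 to 0.0541) in labelled K562/IM+L against K562, and for PSMB8 in the interaction (-0.25 to 0.76).

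With the length trend removed, the sign turned for 12 members in K562+L against K562, for 3 in K562/IM against K562, for 8 in labelled K562/IM+L against K562/IM, for 16 in the interaction and for none (0) in labelled K562/IM+L against K562, and 3, 0, 9, 9 and 0 calls were lost in the same order. Among the genes named with values in each comparison, it turned in K562+L against K562 for PSMA7 (0.0035), PSMB3 (0.0836), PSMB5 (0.0469), PSMB6 (0.16), PSMB7 (0.20) and ADRM1 (0.15), in K562/IM against K562 for PSMB10 (0.0096), PSMD10 (0.25), PSME1 (0.20) and NFE2L1 (-0.0868), and in labelled K562/IM+L against K562/IM for PSMB10 (-0.34), PSMB6 (-0.0062), ADRM1 (-0.0200), NFE2L1 (0.0777) and POMP (-0.30). In the interaction it turned for PSMB6 (-0.22), PSMB7 (-0.20), PSMB8 (-0.0532), ADRM1 (-0.22) and POMP (-0.16). PSME2 in labelled K562/IM+L against K562/IM turned under DESeq2 (0.0040), RLE (0.0040), upper-quartile scaling (0.0543) and counts divided by 4 (0.0023). Upper-quartile scaling also turned PSMD9 in K562+L against K562 (-0.0292), NFE2L1 in labelled K562/IM+L against K562/IM (0.0091), and PSMB5 (0.0881) and NFE2L1 (0.0955) in labelled K562/IM+L against K562, and the fit without a filter turned PSMF1 there (-0.0020). The cause of these changes was not tested.

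With each gene's longest transcript as its length, the immunoproteasome share was 5.52% in K562, 4.25% in K562+L, 6.52% in K562/IM and 5.01% in labelled K562/IM+L. The K562/IM libraries then no longer overlapped with those of K562 and lay above them. Small counts limit PSMB8, PSMA8 and PSMB11.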
